A study of Rattus norvegicus with 21 samples.

Results

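A set of 52 genes had lower transcript levels in the renal cortex of treated ZDSD rats than in both untreated ZDSD rats and healthy rats. The 52 genes, called members here, were chosen by their measured values from the 26404 genes listed, of which 14664 were tested. A member had a mean of at least 1 CPM (counts per 1000000 of the library total, with TMM factors of edgeR) in both comparator groups, and a mean in treated rats of at most 1/1.7 of each of these means, after 0.1 CPM was added to each. In addition, every treated rat lay below every other rat, and genes shorter than 200 bp were left out. Of the genes listed, 13253 had sufficient levels, 152 of these met the ratio limit, and 52 of these showed no overlap between rats. The length limit removed 0 further genes. Since the values of treated rats selected the members, their differences from the comparator groups are given as a description and without a test.

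Bulk RNA-seq was performed on renal cortex of male rats at 37 weeks of age, using stranded total RNA libraries depleted of ribosomal RNA. Sprague Dawley (SD) rats were the healthy controls (n=6). The Zucker Diabetic Sprague Dawley (ZDSD) rat is an obese, diabetic strain with early diabetic kidney disease, and sham-operated ZDSD rats (SHAM, 9 libraries deposited, 7 used for the rule) were the disease controls. The treated rats (DMT, n=6, labelled medical bypass) were also sham-operated ZDSD rats, and received dietary restriction to lose weight together with fenofibrate, metformin, ramipril, rosuvastatin and liraglutide. All treated rats received the diet and all 5 agents, so the contributions of the diet and of single agents cannot be told apart. By the labels, SD and SHAM libraries were analysed anew from an earlier deposit, which is not said of DMT libraries. This difference and the treatment cannot be told apart, although the header and counting command were identical in all 21 files. Rat numbers are the sole identifiers of animals, and cage and litter are not given.

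In diabetic kidney disease, excess glucose and lipid reach a cortex made up largely of proximal tubule, which relies on the oxidation of fatty acids for energy. Fenofibrate activates PPARα, a nuclear receptor that raises transcription of fatty acid oxidation genes, ramipril inhibits the angiotensin-converting enzyme, rosuvastatin inhibits cholesterol synthesis, metformin lowers hepatic glucose output and liraglutide activates the GLP-1 receptor. Genes that are lower in treated rats than in both diseased and healthy rats differ from genes that treatment returns to the healthy level, since in them the level of the treated rat lies outside the range that separates disease from health. The files list genes by Ensembl identifier and rn5 position, and 0 of the identifiers could be paired with a gene symbol, so members are given by position on rn5 and by exon structure, and what they encode was not analysed here. For the same reason, the identity of the tissue was not checked against marker genes.

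Total counts per library were 20896370 to 27597901 in SD rats, 22308943 to 26812590 in DMT-treated rats and 14502127 to 23995113 in the 7 deeper SHAM rats. SHAM rats 343 and 348 had 121511 and 101534 counts, and were not used by the rule. At the depth of these 19 libraries, a count of 3 corresponds to 0.109 to 0.207 CPM. The lowest count of any member was 5 in a DMT-treated rat and 14 in an SD or SHAM rat, and 6 of the 52 members had fewer than 10 counts in at least 1 DMT-treated rat.

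DMT-treated rats had lower levels throughout the set. The mean in DMT-treated rats was 1.71 to 5.05-fold below the lower of the SD and SHAM means (median 2.23-fold, 0.1 CPM added to each mean), and 38 members were at least 2-fold and 8 at least 3-fold lower. The median log2 fold-change of the members was -1.48 for DMT vs SHAM, compared with 0.00 over all genes tested, and -1.30 for DMT vs SD, compared with 0.01. Both comparisons share the same DMT-treated rats. The decrease relative to SHAM rats was larger than that relative to SD rats in 32 of the 52 members, those with a higher fitted level in SHAM than in SD rats. By the edgeR quasi-likelihood test with thresholds of an adjusted p-value of 0.05 and a fold-change of 1.3, 7.36% of all genes tested were called lower in DMT vs SHAM, 10.2% were called lower in DMT vs SD and 2.99% in both. Every DMT-treated rat lay below every SD and SHAM rat in 0.975% of all genes tested. All 52 members fall in each of these classes, which follows from how they were chosen. In bulk tissue, fewer cells of a type and less RNA per cell cannot be told apart.

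**Figure D1:**
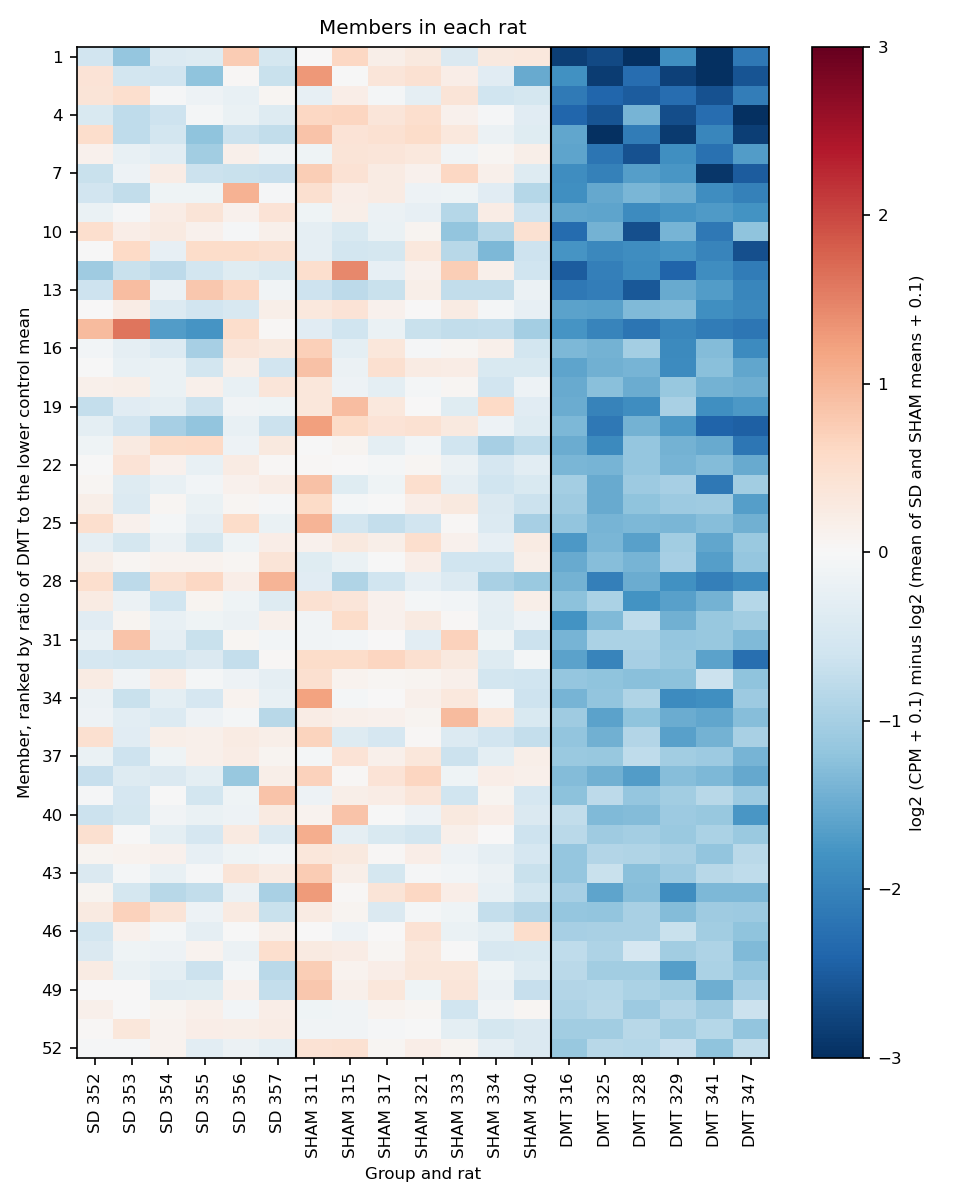
Level of the 52 members (vertical axis, ranked from the lowest ratio of the DMT mean to the lower comparator mean) in each of 19 rats (horizontal axis, by group). Colour gives the difference between log2(CPM + 0.1) in the rat and log2 of the mean of the SD and SHAM means plus 0.1, and the columns of the 6 DMT-treated rats are blue for every member, since no DMT-treated rat overlapped the other rats.

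The largest relative difference was found in ENSRNOG00000015438, an 18-exon gene on the forward strand at chr19:26248405-26290279. Its level was 3.61 to 11.9 CPM in DMT-treated rats (median 6.28), 32.2 to 66.8 CPM in SHAM rats (median 52.6) and 19.2 to 73.0 CPM in SD rats (median 31.4). SD and SHAM rats overlapped, whereas DMT-treated rats were all lower, and SD rat 356 was well above the other SD rats. Group means ± standard deviation were 7.09 ± 3.15 CPM (DMT, n=6), 50.1 ± 10.6 CPM (SHAM, n=7), and for SD 36.2 ± 18.7 CPM (n=6), a 5.05-fold difference between DMT and the lower comparator mean. ENSRNOG00000032404, a 35-exon gene on the reverse strand at chr10:86699277-86735462, was next in order. Levels of this gene were 0.376 to 1.53 CPM in DMT-treated rats (median 0.785), 1.903 to 14.1 CPM in SHAM rats (median 6.53) and 2.40 to 7.58 CPM in SD rats (median 3.78). SHAM rats spread more widely here than in the first gene, from rat 340, close to the DMT-treated rats, to rat 311, above all others. The difference to the lower comparator mean was 4.69-fold.

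A 2-exon gene at chr15:44476884-44478899 (forward strand) had the clearest gap between rats. DMT-treated rats had 0.413 to 0.646 CPM (median 0.525), SHAM rats 1.99 to 3.99 CPM (median 2.57) and SD rats 2.60 to 4.32 CPM (median 3.07). The lowest SD or SHAM rat was 3.08-fold above the highest DMT-treated rat, the widest such gap of all genes tested. The gene is expressed at a low level, and its values in DMT-treated rats rest on 11 to 16 counts per rat.

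In the 12-exon gene at chr19:55878687-55952179, DMT-treated rats had 1.41 to 4.58 CPM (median 2.11), SHAM rats 9.69 to 19.2 CPM (median 15.7) and SD rats 7.19 to 11.7 CPM (median 9.05). Rat 328 held the upper end of the DMT range, well above the other DMT-treated rats. The 19-exon gene at chr18:27137685-27146171 had 0.235 to 0.825 CPM in DMT-treated rats (median 0.412), 2.02 to 4.82 CPM in SHAM rats (median 3.53) and 1.08 to 3.85 CPM in SD rats (median 1.59). Only SD rat 352 reached the level of most SHAM rats in this gene. A further 19-exon gene, at chr5:66802348-67142203, had 1.08 to 2.31 CPM in DMT-treated rats (median 1.69), 6.44 to 9.38 CPM in SHAM rats (median 8.03) and 3.395 to 7.89 CPM in SD rats (median 6.30). These 3 genes were 3.73, 3.57 and 3.47-fold lower in DMT than in the lower comparator group, which was the SD group in each.

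**Figure D2:**
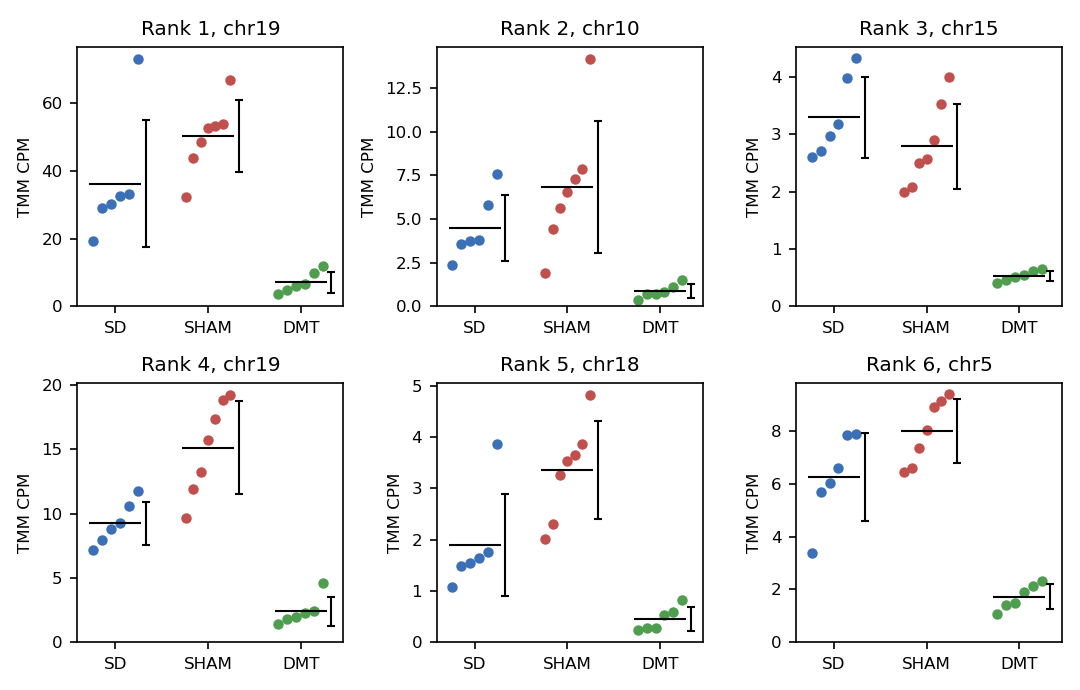
TMM CPM (vertical axis, linear from 0) in single SD, SHAM and DMT-treated rats for the 6 members with the lowest ratio of the DMT mean to the lower comparator mean. Points are rats in order of value, horizontal lines are group means and vertical bars are ± 1 standard deviation; in the chr15 gene the DMT-treated rats end at 0.646 CPM and the other rats begin at 1.99 CPM.

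The remaining members with the lowest ratios covered a wide range of levels. At chr1:79296259-79320748, a 10-exon gene had mean levels of 0.420 CPM in DMT-treated rats, 2.58 CPM in SHAM rats and 1.54 CPM in SD rats, and the lowest of the other rats was 2.11-fold above the highest DMT-treated rat. At chr14:86893087-86982260 (23 exons), the means were 1.32, 4.32 and 4.47 CPM in the same order. SHAM and SD means were thus close in the chr14 gene, while SHAM rats were the higher group in the chr1 gene. The 3-exon gene at chr15:46736822-46741141 had means of 5.09 CPM (DMT), 14.6 CPM (SHAM) and 20.2 CPM (SD), with SHAM rats extending down to 7.68 CPM, just above the highest DMT-treated rat at 7.51 CPM. The 37-exon gene at chr9:29243190-29325623 had means of 0.382, 1.27 and 2.31 CPM, and the 13-exon gene at chr20:11768514-11808416 had 0.519, 3.52 and 1.63 CPM, again for DMT, SHAM and SD. The order of SHAM and SD was opposite in these genes, with DMT-treated rats below both.

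Among abundant members, the 17-exon gene at chr2:72891713-73037614 exceeded all others. It had 552 to 743 CPM in DMT-treated rats (median 627), 779 to 1252 CPM in SHAM rats (median 1094) and 1112 to 1346 CPM in SD rats (median 1265). SHAM rat 333, with the lowest value of the comparator rats, came within 1.05-fold of the highest DMT-treated rat. Per kb of exon length, its mean level over SD and SHAM was 354 CPM per kb, compared with 345 CPM per kb for the 7-exon gene at chr13:49530262-49553512 and 139 CPM per kb for the 7-exon gene at chr9:88062427-88104120. Next in level per length were a 6-exon gene at chr9:92237485-92261950 with 52.3 CPM per kb and a 25-exon gene at chr11:85059234-85251061 with 45.5 CPM per kb. The median over the members was 3.94 CPM per kb, compared with 11.7 CPM per kb over all genes tested, so most members were less abundant than a typical tested gene.

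The chr13 gene differed most among the abundant members. DMT-treated rats had 75.6 to 95.7 CPM (median 84.1), SHAM rats 155 to 326 CPM (median 250) and SD rats 245 to 371 CPM (median 319), a 2.87-fold difference between DMT and the lower comparator mean. DMT-treated rats were close together, and SHAM rats varied more than either other group, from rat 333 to rat 334. In the chr11 gene, DMT-treated rats had 46.9 to 95.1 CPM (median 68.0), SHAM rats 117 to 285 CPM (median 170) and SD rats 101 to 191 CPM (median 139), a 1.99-fold difference. In the chr9:92237485-92261950 gene, levels were 51.0 to 74.7 CPM in DMT-treated rats (median 59.4), 96.7 to 169 CPM in SHAM rats (median 119) and 80.1 to 130 CPM in SD rats (median 115), a 1.84-fold difference. In both genes the highest DMT-treated rat lay just below the lowest SD rat. A 27-exon gene at chr14:79176694-79547823 had 21.4 to 28.3 CPM in DMT-treated rats (median 26.2), 63.4 to 111 CPM in SHAM rats (median 79.6) and 31.4 to 77.6 CPM in SD rats (median 51.7).

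The members differed in how far the DMT-treated rats stood apart. The ratio of the lowest SD or SHAM rat to the highest DMT-treated rat had a median of 1.21 and was under 1.1 in 13 members and at least 1.5 in 10. The smallest gap of a member described here was in the 21-exon gene at chr1:48905802-48987223, in which the lowest SD rat was 1.002-fold the highest DMT-treated rat. The SD rats ranged from 1.20 to 13.4 CPM in this gene (median 5.34), compared with 0.875 to 1.20 CPM in DMT-treated rats (median 0.978) and 2.08 to 3.74 CPM in SHAM rats (median 2.69). In this gene 4 of 6 SD rats were above every SHAM rat, and the other 2 were close to the treated rats. The 22 members that are not described singly had means of 1.15 to 40.5 CPM in SD rats, 1.21 to 51.7 CPM in SHAM rats and 0.441 to 22.0 CPM in DMT-treated rats, and were 1.78 to 2.74-fold lower in DMT.

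At the ratio limit, the last members to be included were chr2:72891713-73037614 (ratio of the DMT mean to the lower comparator mean 0.570), chr9:88062427-88104120 (0.581) and chr9:97608960-97618933 (0.584). The first genes beyond the limit that met every other part of the rule were chr2:217345269-217350435 (0.590), chr3:124095126-124289500 (0.596) and chr11:71232155-71287075 (0.616). In the chr2:217345269-217350435 gene, group means were 11.9 CPM in DMT-treated rats, 24.8 CPM in SHAM rats and 20.2 CPM in SD rats, hence it differs from the last members by little. When the same rule was applied to the other groups, 6 genes were lowered only in SHAM and 92 only in SD. In the opposite direction, 96 genes were raised only in DMT, 15 only in SHAM and 136 only in SD. There the minimum of 1 CPM applied to the raised group alone, so the numbers of raised and lowered genes are not directly comparable. Both ZDSD groups share a strain that SD rats do not, and they differ from each other in treatment.

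Across the 52 members, SHAM rats spread more widely than SD rats. The median level of the members in a rat, as a percentage of the mean of the SD and SHAM means, was 36.6% to 41.0% in DMT-treated rats, 85.2% to 99.8% in SD rats and 72.9% to 126% in SHAM rats. SHAM rat 311 was highest, and held the highest value of the 13 SD and SHAM rats in 20 members. SHAM rat 340 was lowest, and held the lowest value of these rats in 12 members, followed by SHAM rat 334 in 9 and SD rat 355 in 7. The lowest of the 13 rats was an SD rat in 25 members and a SHAM rat in 27, so that neither group alone set the edge of the set. Among DMT-treated rats, rats 316 and 328 held the highest value in 15 and 14 members, and rat 347 held the lowest in 15.

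The sum over all members was 1219 ± 57.4 CPM in DMT-treated rats (standard deviation, n=6), 2614 ± 268 CPM among SHAM (n=7), and for SD 2699 ± 149 CPM (n=6). This sum is dominated by the chr2:72891713-73037614 gene. Within-group variation of the members was larger than that of the average gene tested. The median coefficient of variation was 19.2% in DMT-treated rats, 26.3% in SHAM rats and 21.6% in SD rats, compared with 8.60%, 13.0% and 11.6% over all genes tested. As given below, more of the members than of all genes tested had a low level, and the part of this in their variation was not tested.

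SHAM rats 343 and 348 were not used to choose the members, and their values show where further SHAM libraries lay. Over 4798 genes with enough counts, these libraries agree within sampling noise (chi-square divided by its degrees of freedom 1.03), so they were counted as 1 sample. Whether they are 1 library deposited under both rat numbers, or libraries that failed, cannot be told from the files, and the study used 7 SHAM rats without naming them. Their values may therefore stand for less than a further rat. Together they had 578 counts on the members out of 223045, or 2591 CPM of the total count (95% exact Poisson interval 2384 to 2812, for counting error only). Scaled in the same way, without TMM, the sum was 2414 to 2951 in the other SHAM rats, 2476 to 2776 in SD rats and 1131 to 1264 in DMT-treated rats. The sample was within the range of the other SHAM rats. The gap to DMT-treated rats is a description without a test, since these rats selected the members as low. Without the most abundant member, the sample had 1412 CPM of the total count (95% interval 1261 to 1577), compared with 1249 to 1835 in the other SHAM rats, 1260 to 1521 in SD rats and 527 to 624 in DMT-treated rats. Single members could be compared only where counts were sufficient, since 35 of the 52 members had a count in either library. For each of the 8 most abundant members, the sample was within the range of the other SHAM rats. The chr13:49530262-49553512 gene, for example, had 206 CPM of the total count in the sample (95% interval 151 to 275), compared with 177 to 327 in the other SHAM rats. The chr19:26294247-26337106 gene was nearest to the edge, with 44.8 (21.5 to 82.5), compared with 44.7 to 111. Its interval reached into the range of DMT-treated rats (13.9 to 28.3). So did those of the chr9:97620136-97670009 gene (54.8 to 138, DMT 44.8 to 58.2) and the chr9:88062427-88104120 gene (87.1 to 187, DMT 69.8 to 92.0). For the others of these abundant members the interval lay above the DMT range, which is again a description without a test.

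**Figure D3:**
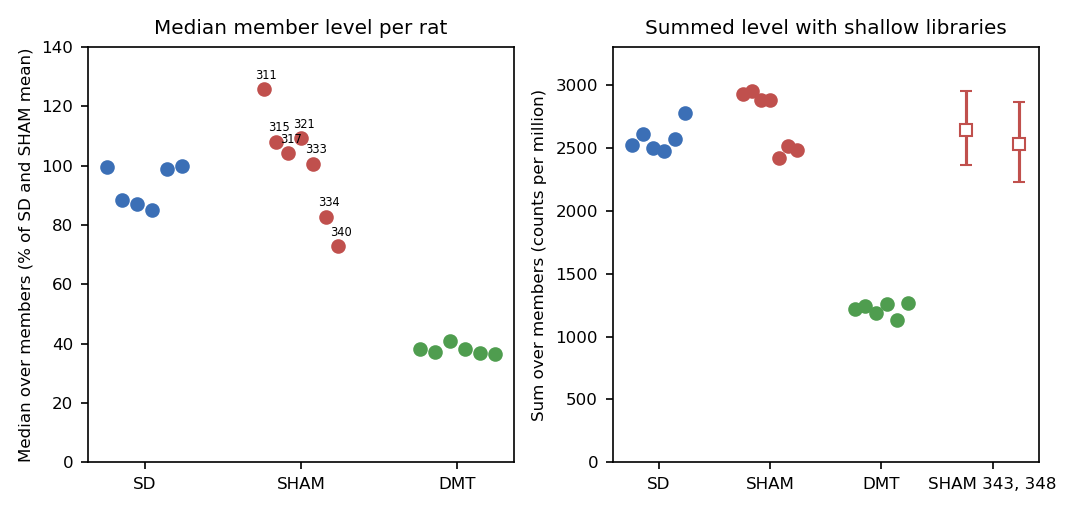
Left, median over the 52 members of the level in each rat (vertical axis, percentage of the mean of the SD and SHAM means) by group, with SHAM rats numbered. Right, sum over the members in CPM of the total count for the rats used by the rule (filled points) and for SHAM rats 343 and 348, which were not used (open squares, bars are 95% exact Poisson intervals); the open squares lie at 2642 and 2531, within the range of the other SHAM rats at 2414 to 2951.

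Values for SHAM vs SD were taken from the fit across all genes tested. The rule set no direction for this comparison, but the means and lowest values of the same SHAM and SD rats chose the members, so that the number of members called describes the set and is not independent evidence about it. The same limit applies to the p-values of single members given below. They were adjusted over all genes tested, but not for the choice of the members. Of the 52 members, 17 were called in SHAM vs SD (32.7%, compared with 18.3% of all genes tested), of which 11 were higher in SHAM (21.2%, compared with 10.3%) and 6 were lower (11.5%, compared with 7.95%). A further 35 members were not called. The median log2 fold-change of the members was 0.10, compared with 0.01 over all genes tested. The SHAM mean was above the SD mean in 32 of 52 members (61.5%, compared with 51.3% of all genes tested). The members thus contain genes that were higher, genes that were lower and genes that passed no threshold in untreated ZDSD rats relative to SD rats, with DMT-treated rats below both groups in each.

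Genes that were higher in SHAM were led by the 13-exon gene at chr20:11768514-11808416, with 1.66 to 7.11 CPM in SHAM rats (median 2.87) and 1.19 to 1.97 CPM in SD rats (median 1.65). All 7 SHAM rats were above the SD mean, although the ranges overlapped, with a log2 fold-change of 1.11 (standard error 0.26, adjusted p=0.00336, by the edgeR test named above, adjusted over all genes tested by the Benjamini-Hochberg method). The 16-exon gene at chr1:214925928-214952235 had 7.02 to 21.9 CPM in SHAM rats (median 12.2) and 3.99 to 7.84 CPM in SD rats (median 6.05). Again 7 of 7 SHAM rats were above the SD mean, with a log2 fold-change of 1.05 (standard error 0.25, adjusted p=0.00311). The 1-exon gene at chr5:150531666-150534380 had 25.1 to 51.3 CPM in SHAM rats (median 45.6) and 19.9 to 33.5 CPM in SD rats (median 22.7), with a log2 fold-change of 0.77 (standard error 0.19, adjusted p=0.0044, 7 of 7 SHAM rats above the SD mean). Its DMT-treated rats had 6.74 to 16.4 CPM (median 10.8), below the SD level. The gene at chr14:79176694-79547823 was also higher in SHAM (log2 fold-change 0.72, standard error 0.16, adjusted p=0.00209, 7 of 7 SHAM rats). In the 1-exon gene at chr17:45480513-45480923, 6 of 7 SHAM rats were above the SD mean (log2 fold-change 0.86, standard error 0.25, adjusted p=0.0135). The chr18:27137685-27146171 gene passed the threshold with a log2 fold-change of 0.82 (standard error 0.29, adjusted p=0.0339), but was not called under 10 of 27 alternatives.

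Genes that were lower in SHAM were led by the 21-exon gene at chr2:225765776-225814130. It had 2.04 to 7.40 CPM in SD rats (median 5.01), 1.61 to 2.99 CPM in SHAM rats (median 2.32) and 0.782 to 1.28 CPM in DMT-treated rats (median 0.919). All 7 SHAM rats were below the SD mean, with a log2 fold-change of -1.08 (standard error 0.22, adjusted p=0.00128). The 37-exon gene at chr9:29243190-29325623 had 1.503 to 2.74 CPM in SD rats (median 2.58) and 0.648 to 2.25 CPM in SHAM rats (median 1.20), with a log2 fold-change of -0.86 (standard error 0.23, adjusted p=0.00683, 7 of 7 SHAM rats below the SD mean). In these genes the order of group levels was SD, SHAM and DMT. Similarly, the 11-exon gene at chr8:70452358-70467298 had 6.14 to 18.2 CPM in SD rats (median 11.7) and 5.499 to 10.7 CPM in SHAM rats (median 5.88), with a log2 fold-change of -0.84 (standard error 0.24, adjusted p=0.0105). The 1-exon gene at chr8:62060880-62062260 had 14.7 to 24.7 CPM in SD rats (median 19.99) and 8.24 to 17.3 CPM in SHAM rats (median 13.5), with a log2 fold-change of -0.61 (standard error 0.18, adjusted p=0.0165). In both genes 7 of 7 SHAM rats were below the SD mean, and the ranges overlapped.

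The chr9:88062427-88104120 gene was the sole member without overlap between SHAM and SD rats (1 of 52, compared with 8.61% of all genes tested). SD rats had 164 to 201 CPM (median 183), SHAM rats 111 to 157 CPM (median 148) and DMT-treated rats 70.4 to 89.6 CPM (median 78.0), so that the 3 groups were separated in this gene. The log2 fold-change for SHAM vs SD was -0.39 (standard error 0.08, adjusted p=0.00131), near the fold-change threshold, and the call was lost under 4 of 28 alternatives. The largest decreases also included the chr1:48905802-48987223 gene (log2 fold-change -1.04, standard error 0.39, adjusted p=0.0462), whose call was lost under 20 of 28 alternatives, among them leaving out any single DMT-treated or SHAM rat.

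**Figure D4:**
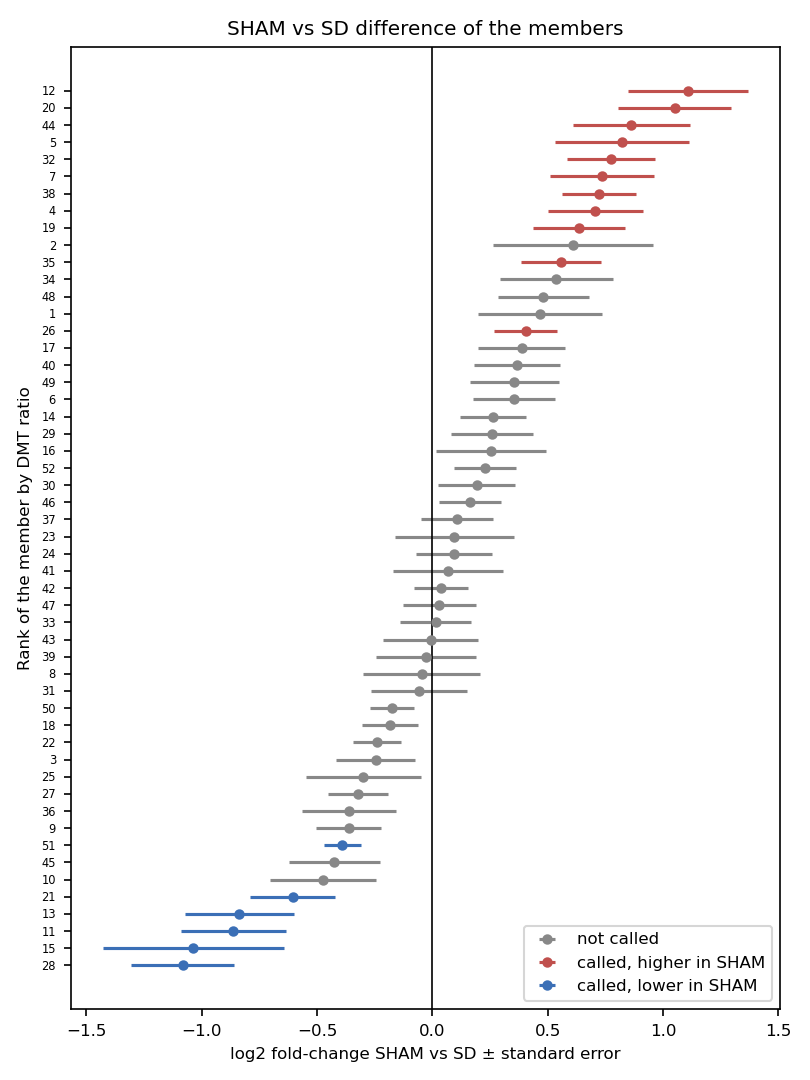
Log2 fold-change for SHAM vs SD (horizontal axis, bars are ± 1 standard error) of the 52 members, ordered by this value and labelled by their rank in the ratio of DMT to the lower comparator mean (vertical axis). Red points are the 11 members called higher in SHAM, blue points the 6 called lower and grey points the 35 not called; the called members occur among both low and high ranks.

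On average the members were longer than the genes tested. Their median exon length was 2874.5 bp, compared with 2006 bp over all genes tested, and their median span on the genome was 37048.5 bp, compared with 18735 bp. The median number of exons, counted after overlapping exons had been merged, was 14, compared with 8, and 17 members (32.7%) had 20 or more exons, compared with 14.4% of all genes tested. Conversely, 4 members (7.69%) had a single exon, compared with 5.72%. At a given level per length, longer genes collect more counts, and the part of this in the selection was not tested. In level, 26 members (50%) had a mean under 10 CPM over SD and SHAM, compared with 32.5% of all genes tested, and 12 had a mean under 1 CPM in DMT-treated rats.

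Members lay on both strands (28 forward, 24 reverse) and on most chromosomes. Chromosomes 1 and 9 held 7 members each (13.5%), compared with 12.7% of the genes tested for chromosome 1 and 3.85% for chromosome 9. There were 0 members on chromosomes 6, 12, 16 and X, which hold 4.55%, 3.23%, 2.89% and 3.17% of the genes tested. In all, 9 members lay within 500 kb of another member, in 4 windows. Of the members, 47 overlapped no other gene, 5 overlapped a gene on the opposite strand and 2 overlapped a gene on the same strand (chr1:212904287-213226787 and chr13:84804759-85272009). Fragments shared by 2 genes on the same strand were left out of the counts, so the levels of these 2 members are uncertain.

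In the chromosome 19 window, 3 members lay within 410562 bp. The gene with the largest relative difference, at chr19:26248405-26290279, and the 17-exon gene at chr19:26294247-26337106 are neighbours on the forward strand, 3967 bp apart. The chr19:26294247-26337106 gene had 13.9 to 28.5 CPM in DMT-treated rats (median 16.3), 43.8 to 107 CPM in SHAM rats (median 69.9) and 34.5 to 52.5 CPM in SD rats (median 45.0), and was higher in SHAM vs SD (log2 fold-change 0.63, standard error 0.20, adjusted p=0.0184, 6 of 7 SHAM rats above the SD mean). The remaining member, on the reverse strand at chr19:26630488-26658966, had means of 3.79 CPM in DMT-treated rats, 9.44 CPM in SHAM rats and 8.85 CPM in SD rats. Other genes of the window did not share this pattern. The gene immediately before the members, at chr19:26192035-26236467, had means of 920 CPM in DMT-treated rats, 946 CPM in SHAM rats and 1544 CPM in SD rats, with a log2 fold-change of -0.05 for DMT vs SHAM (adjusted p=0.81) and -0.76 for DMT vs SD (adjusted p=0.000112). Of the 4 other tested genes within 100 kb of the members in this window, 0 were called lower in both comparisons.

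On chromosome 9, a pair of members, at chr9:97608960-97618933 (7 exons) and chr9:97620136-97670009 (37 exons), lay 1202 bp apart on the reverse strand. Per kb of exon length, the ratio of the short to the long gene was 0.966 to 1.12 in SD rats, 1.13 to 1.33 in SHAM rats and 1.12 to 1.36 in DMT-treated rats. The ratio was lower in every SD rat than in every SHAM rat, and DMT-treated rats covered a range close to that of SHAM rats. Whether the genes are separate transcripts was not tested. The long gene had 45.1 to 58.8 CPM in DMT-treated rats (median 53.7), 73.0 to 130 CPM in SHAM rats (median 105) and 86.7 to 112 CPM in SD rats (median 103), without a call for SHAM vs SD (log2 fold-change 0.04, standard error 0.12, adjusted p=0.821).

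The chromosome 17 members were 1-exon genes of 411 bp each on opposite strands, 7136 bp apart, at chr17:45480513-45480923 and chr17:45488060-45488470. The former had 1.04 to 1.98 CPM in DMT-treated rats (median 1.54), 2.73 to 9.997 CPM in SHAM rats (median 4.66) and 2.003 to 4.28 CPM in SD rats (median 2.59). The latter had 0.587 to 1.25 CPM in DMT-treated rats (median 0.942), 1.55 to 5.69 CPM in SHAM rats (median 2.45) and 1.497 to 2.60 CPM in SD rats (median 2.02). SHAM rat 311 was high in both. This window holds 9 other tested genes, several of them short 1-exon genes, of which 3 were called lower in DMT vs SHAM and 2 were called lower in DMT vs SD, with 0 called in both. The 1-exon gene of 411 bp at chr17:45470632-45471042, for example, had means of 1.13 CPM in DMT-treated rats, 2.78 CPM in SHAM rats and 1.62 CPM in SD rats (log2 fold-change for DMT vs SHAM -1.31, adjusted p=0.00337, and for DMT vs SD -0.53, adjusted p=0.19). Whether these genes share sequence was not analysed here, and fragments that map to several places were left out of the counts, so levels in this window are uncertain.

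On chromosome 8, members at chr8:70300509-70322185 (20 exons) and chr8:70452358-70467298 lay 130172 bp apart, with tested genes between them. The first had means of 0.853 CPM in DMT-treated rats, 2.26 CPM in SHAM rats and 1.98 CPM in SD rats. The gene that follows it, at chr8:70327832-70377787, had means of 1.602, 2.48 and 1.98 CPM in the same order and was called lower in DMT vs SHAM only (log2 fold-change -0.64, adjusted p=0.0163). The gene at chr8:70401838-70424172 was called in neither comparison, with means of 32.0, 30.9 and 36.2 CPM. Of the 4 other tested genes in this window, 0 were called lower in both comparisons.

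**Figure D5:**
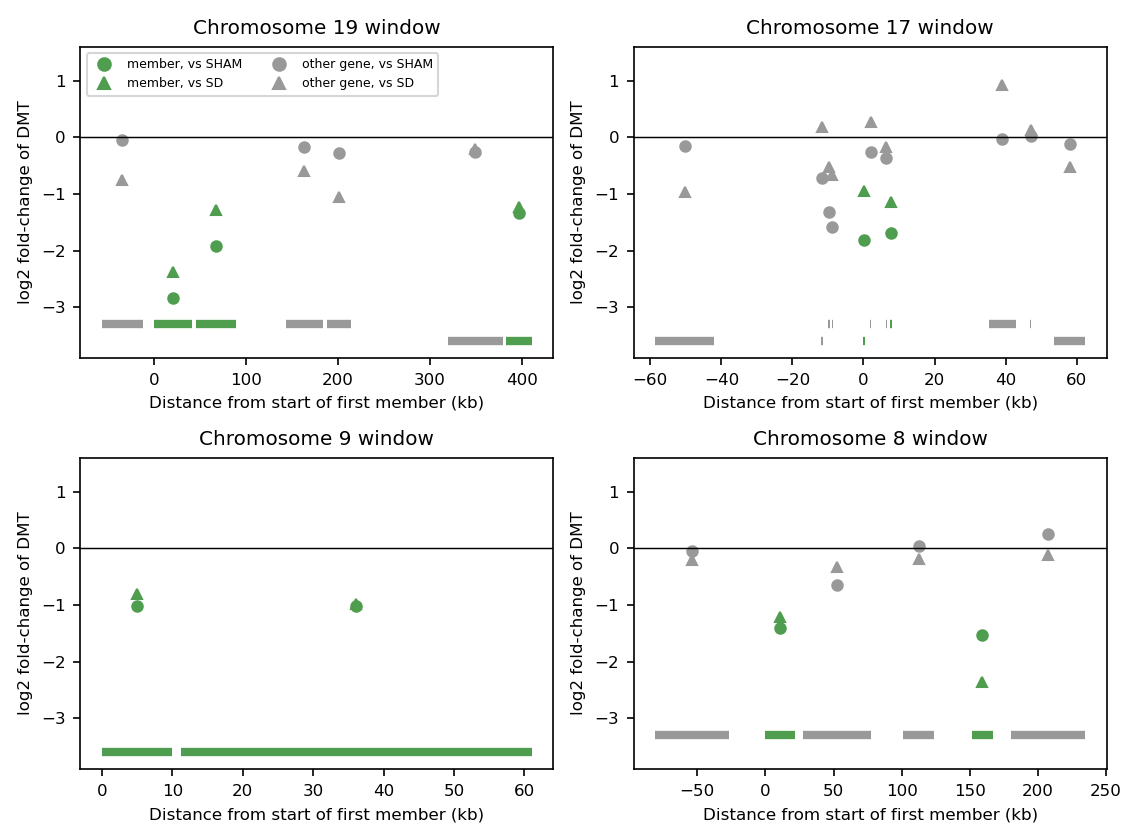
Log2 fold-change of DMT vs SHAM (circles) and DMT vs SD (triangles) of tested genes within 100 kb of members, against the distance from the start of the first member in kb, in the 4 windows that hold more than 1 member. Members are green and other genes grey, and bars at the base give gene positions, upper for the forward and lower for the reverse strand; no grey gene was called lower in both comparisons.

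Across the genome, the nearest tested gene on either side of each member, where this was not a member itself, was examined in the same fit. Of these 100 genes, 10 were called lower in DMT vs SHAM (10%, compared with 7.04% of all tested genes that are not members), 15 in DMT vs SD (15%, compared with 9.83%) and 5 in both (5%, compared with 2.65%). Their median log2 fold-change was -0.03 for DMT vs SHAM and -0.05 for DMT vs SD. Most neighbours of members were therefore not called, in contrast to the members, which had been selected for their difference.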

How the data were processed

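RNA-seq of renal cortex was deposited as 21 libraries, each labelled with its own rat number. Reads were trimmed with Trim Galore, mapped to rn5 with STAR and counted on exons with featureCounts (1.6.4, set to the reverse strand). Fragments that matched more than 1 position or gene were not counted. The deposited values are counts per gene, which the authors did not normalize in these files. The members and all gene lists were chosen with earlier results of these data known.

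TMM factors were computed in edgeR (4.0.16, R 4.3.3) over all listed genes of the 19 libraries with at least 1000000 counts. After filterByExpr at its defaults, 14664 genes were tested in 1 quasi-likelihood fit of the 3 groups, with Benjamini-Hochberg adjustment over all of them. Genes with an adjusted p-value under 0.05 and a fold-change of at least 1.3 were called. Standard errors were derived from the F statistic. The fit was tested on simulated data. DESeq2 (1.42.0) was an alternative, beside other scalings, filters, limits and leaving out each rat. Members were described singly by ratio (12 lowest), level (8 highest, 5 highest per kb), SHAM vs SD call (5 largest each way), the ratio limit (3 on each side) and distance to another member (500 kb), and chr9:88062427-88104120 also for its level. As 0 of 26404 identifiers matched the gene table, lists of pathways, cell type markers, RNA quality genes and promoter motifs could not be applied, at most 2 identifiers are printed, and sequences are not shown. Total counts were 14502127 to 27597901 in the 19 libraries. Floors of 3 counts and Poisson intervals cover counting error only. The p-values set the difference between groups against the spread between rats, as estimated in the fit of the 3 groups. Figures were drawn with matplotlib (3.10.9).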

Additional observations from a re-analysis of the deposited data

Results flagged for a closer look

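Single rats that lay far outside their group were sought by Dixon's criterion over 105 combinations of group and value (the described members, the sums and medians over members, and library properties). The nominal rate of the criterion is 1 in 20, or 5.25, and 10 were found. This rate holds for independent, normally distributed values. The combinations share the same rats, and the rule had chosen the members by these CPM values, without overlap of DMT-treated rats. The 10 are therefore listed as a description, and no excess over chance is inferred. The cause was not tested for any of the 10.

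Among SD rats, rat 356 had 73.0 CPM of the chr19:26248405-26290279 gene (other SD rats 19.2 to 33.1) and 9.09 CPM of the chr14:86893087-86982260 gene (2.58 to 4.26). SD rat 352 had 3.85 CPM of the chr18:27137685-27146171 gene (1.08 to 1.76). SD rat 357 had 33.5 CPM of the chr5:150531666-150534380 gene (19.9 to 24.3) and the highest sum over the members, 2979 CPM (2586 to 2729).

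Among SHAM rats, rat 311 had 5.69 CPM of the chr17:45488060-45488470 gene (1.55 to 3.02), and rat 333 had 779 CPM of the chr2:72891713-73037614 gene (1065 to 1252). Among DMT-treated rats, rat 328 had 4.58 CPM of the chr19:55878687-55952179 gene (1.41 to 2.41), and its 10 most abundant genes made up 5.84% of its total (6.12% to 6.22%). Rat 347 had 0.202 CPM of the chr9:29243190-29325623 gene (0.376 to 0.454), which is 5 counts.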

How the results depend on the processing

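With overlap between rats allowed, the number of members was 148 in place of 52. With all 21 libraries it was 23, which says nothing about stability, since 3 counts equal 24.7 and 29.5 CPM in the shallow libraries, only 31 and 28 members had a count there, and a count of 0 fails the rule by depth alone. Other scalings, limits, pseudocounts and minimum levels gave 38 to 77. Leaving out each rat gave 51 (without rat 352) to 66 (without rat 333), with at least 49 of the 52 shared. The number of members called in SHAM vs SD was 17, in a fit that called 18.3% of all genes tested. It was 3 when the fold-change of 1.3 was tested in the model (chr1:214925928-214952235, chr2:225765776-225814130 and chr20:11768514-11808416). It was 18 with DESeq2, and 14 (without rat 353) to 22 (without rat 340) on leaving out each rat. The share of all genes called in SHAM vs SD under these alternatives is not given. Whether the changes in number are particular to the members was not tested. Genes called in DMT vs SHAM numbered 1684 (604 higher, 1080 lower), 2975 without a fold-change threshold (1428 higher, 1547 lower), 461 with the fold-change tested in the model (211 higher, 250 lower), and 1398 to 1958 on leaving out each rat. For DMT vs SD the numbers were 2663 (1174 higher, 1489 lower), 4682 (2265 higher, 2417 lower), 1091 (450 higher, 641 lower) and 2437 to 2823. Of 472 combinations of a called member and an alternative for SHAM vs SD, 423 kept direction and call, 49 lost the call and 0 reversed. No paired analysis was possible because the groups share no rat numbers. Depth limits members under 1 CPM, which rest on few counts.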
